A study of Mus musculus with 36 samples.

Results

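The DEAD and DEAH box helicase genes described here are the 51 genes of the P-body and cytoplasm count table, of 25239 genes in all, whose symbols start with Ddx or Dhx and a digit, with Ddx6 and Ddx3y left out. The polysome table held 51 of them among 25229 genes, and the table of the Ago2 knockout held 53 matching symbols among 48440 genes. Its further symbols were Ddx26b, absent from the annotation used, and Dhx58os, an antisense RNA with 0 reads. Ddx26b is counted among the 52 members tested there. RNA was sequenced from 36 mouse libraries in 16 groups. P-bodies were sorted as particles marked with GFP-LSM14A, which was expressed from an EF1a promoter by lentivirus, and each was compared with the cytoplasm taken before sorting. The cells were v6.5 embryonic stem (ES) cells kept naive in 2i and LIF or primed with activin A and bFGF, mouse embryonic fibroblasts (MEFs) from mid-gestation embryos with inducible reprogramming factors in Col1a1, M2-rtTA in Rosa26 and a Pou5f1-EGFP reporter, the same fibroblasts at day 3 of doxycycline as control or with a Nudt21 short hairpin RNA, and ES cells without Ago2, grown from single-cell CRISPR clones, which have no control in their own table. In a further experiment, naive ES cells from single-cell clones with a degron tag on both Ddx6 alleles were compared as control and after dTAG-13, which removes the DDX6 protein, with RNA from the pooled ribosome-containing fractions of a sucrose gradient against total RNA of the same lysate. The P-body and cytoplasm groups had 2 libraries each and the polysome and total RNA groups 3 each. The study describes its sequencing replicates as biological, and the labels tie no library to a culture, so the p-values measure the spread between these libraries.

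DEAD and DEAH box proteins use ATP to unwind or remodel RNA and to move proteins off it. They are named for a short ATPase motif, and members of the family act at most steps of the life of an RNA, from transcription and splicing to export, ribosome assembly, translation and the sensing of viral RNA. P-bodies are cytoplasmic granules of untranslated mRNA and repressor proteins, and DDX6, itself a DEAD box protein, is needed to form them. The measurements below concern the mRNAs of the helicases, not the proteins.

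The motif after which the family is named was found in the longest coding transcript of 47 members, in the DEAD form in 25 genes, in the DEAH form in 8 and in another variant in the remaining 14. A hit counted only after mostly hydrophobic residues and with the SAT motif, or a close variant, at a set distance downstream. Ddx11, Ddx28, Ddx51 and Dhx32 had no hit under this rule, which can miss a motif, so the counts by form depend on it. The stretches below are the 4 motif codons, in capitals, with 9 bases of coding sequence on each side, for the members on which the results turn. They come from GENCODE transcripts on GRCm38 (mm10), lie within a single coding exon each, and are written 5′ to 3′ on the gene's strand. Ddx5 (chr11:106785184-106785213, minus strand), Ddx3x (chrX:13289399-13289428, plus strand) and Ddx19b (chr8:111011326-111011355, minus strand) encode the DEAD form, Dhx8 (chr11:101752131-101752160, plus strand) the DEAH form, and Ddx52 (chr11:83952122-83952151, plus strand), Ddx58 (chr4:40223876-40223905, minus strand), Dhx36 (chr3:62493845-62493874, minus strand) and Dhx9 (chr1:153468880-153468909, minus strand) a variant.
Ddx5: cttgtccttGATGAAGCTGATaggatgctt
Ddx3x: ctggtgttaGATGAAGCTGACcggatgtta
Ddx19b: tttgttctgGACGAGGCTGATgtgatgata
Dhx8: attatgttgGATGAAGCACACgagaggacc
Ddx52: ctggtagtaGATGAATCAGACaaactgttt
Ddx58: atgatatttGATGAGTGTCATaacactagc
Dhx36: attgtacttGATGAAATTCATgaaaggaat
Dhx9: gttattgtgGATGAAATTCATgaaagagat
The 4 codons of Dhx36 and Dhx9 are the same. In naive cells the Dhx36 transcript was higher in P-bodies than in cytoplasm and that of Dhx9 lower. The stretch of Ddx19a is identical to that of Ddx19b, and 33.3% of the 50-base windows of the Ddx19a transcripts are shared with another gene, so the counts of these 2 genes are uncertain. The same holds for Ddx18 (62.7% of windows shared) and, in part, for Ddx5 (23.9%).

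Library totals ran from 6769731 to 31185874 reads in the P-body and cytoplasm table, from 15624401 to 17486268 in the Ago2 table and from 13308782 to 29362195 in the polysome table. At that depth 42 to 48 of the 51 genes averaged at least 10 CPM (reads scaled to a common library total) in every group of the P-body, cytoplasm, polysome and total RNA libraries outside the Ago2 table. Nudt21 read 5.74 and 4.99 CPM in the knockdown cytoplasm against 89.1 and 92.2 CPM in its control, and Ago2 read 2.57 to 4.52 CPM in the knockout libraries. The removal of DDX6 acts on the protein, so the Ddx6 mRNA does not test it. Of the identity checks, fibroblast genes summed to 10374 to 36108 CPM in the MEF libraries. Both MEF P-body libraries also carried reads of 4 lung epithelium genes (5.81 and 87.8 CPM in sum, at most 0.017 CPM in the cytoplasm) and of 5 blood genes (1.6 and 9.08 CPM, at most 0.199 CPM in the cytoplasm), with none of these genes at 0. Nuclear-retained RNAs summed to 4755 and 6788 CPM in the MEF P-body libraries against 979 and 1060 CPM in the MEF cytoplasm. They were also higher in P-bodies than in cytoplasm in naive cells (536 and 514 CPM against 197 and 275 CPM), in the Ago2 knockout (1075 and 1306 CPM against 301 and 573 CPM) and in the day 3 control (1540 and 1861 CPM against 1438 and 1446 CPM). They were lower in P-bodies in primed cells (594 and 649 CPM against 842 and 1059 CPM) and in the Nudt21 knockdown (655 and 660 CPM against 1086 and 1092 CPM). The part of all these RNAs in the P-body results was not tested.

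Which helicase mRNAs sat in the P-bodies of naive ES cells was tested with edgeR's quasi-likelihood test over all genes, where a positive log2 fold change means a higher level in P-bodies (P-body-enriched) and a call is a Benjamini-Hochberg adjusted p under 0.05. Of the 50 members tested, 15 passed as P-body-enriched and 5 as P-body-depleted. Over all genes, 22.6% were called enriched and 15.4% depleted. The median log2 fold change of the helicase genes was -0.03, against -0.06 for all genes tested. The enriched set held 6 of 16 ribosome assembly helicases, 4 of 10 splicing helicases and 4 of 10 genes of transcription, RNA processing and translation, and none of the 5 mRNA export helicases, among which Ddx39b was depleted.

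Ddx52, which takes part in assembly of the small ribosomal subunit, had the highest enrichment of the helicase mRNAs. Its P-body libraries read 313 and 321 CPM where those of the cytoplasm read 41.3 and 56.8 CPM, which gave a log2 fold change of 2.92 ± 0.16 (SE, adjusted p = 0.00041). The groups did not overlap. Dhx36, which unwinds G-quadruplex RNA, read 361 and 369 CPM in P-bodies against 81.5 and 105 CPM in the cytoplasm, with a log2 fold change of 2.20 ± 0.13. Ddx3x, an X-linked helicase that aids translation initiation on structured leaders, read 540 and 513 CPM against 179 and 181 CPM. Its log2 fold change was 1.77 ± 0.10. Of all helicase transcripts it had the highest level per kilobase in the naive P-body, 112 CPM per kb, followed by Ddx5 with 111 CPM per kb, a gap smaller than the SD of 4.02 over the Ddx3x libraries.

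Ddx58, which encodes the cytoplasmic viral RNA sensor RIG-I, was at a low level in naive cells and was still enriched. The P-body libraries gave 27.3 and 31.6 CPM, the cytoplasm gave 3.6 and 8.11 CPM, with a log2 fold change of 2.56 ± 0.35. The cytoplasm pair lay apart, and the value was 2.13 without cytoplasm library 1 and 3.23 without library 2, called in both. The other enriched members with the largest changes were Ddx55 (log2 fold change 1.67), Ddx10 (1.58) and Ddx21 (1.03), all of ribosome assembly, and Ddx20 (1.18), a partner of the SMN complex. Ddx5, a co-regulator of transcription and splicing, read 395 and 401 CPM against 302 and 273 CPM and was enriched by 0.69 ± 0.12 on the log2 scale. Its close paralog Ddx17 read 21.8 and 17.9 CPM against 30.3 and 32.9 CPM and was not called (log2 fold change -0.45, adjusted p = 0.075, edgeR).

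Dhx9, a nuclear helicase of transcription and RNA processing, was the most depleted member. Naive P-bodies held it at 13.4 and 13.6 CPM and the cytoplasm at 49 and 50.8 CPM, and the log2 fold change was -1.66 ± 0.13. The remaining depleted genes were Dhx34, of nonsense-mediated decay (-0.70), the ribosome assembly helicases Ddx54 (-0.66) and Dhx37 (-0.59), and Ddx39b, of splicing and export (-0.50). Without either naive P-body library the number of members called fell to 10, with Ddx5, Ddx54, Dhx34, Dhx37 and Ddx39b no longer among them, and without cytoplasm library 1 or 2 it was 35 or 38. The direction of these genes held in each of those fits. The number of all genes called fell and rose in the same fits.

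**Figure D1:**
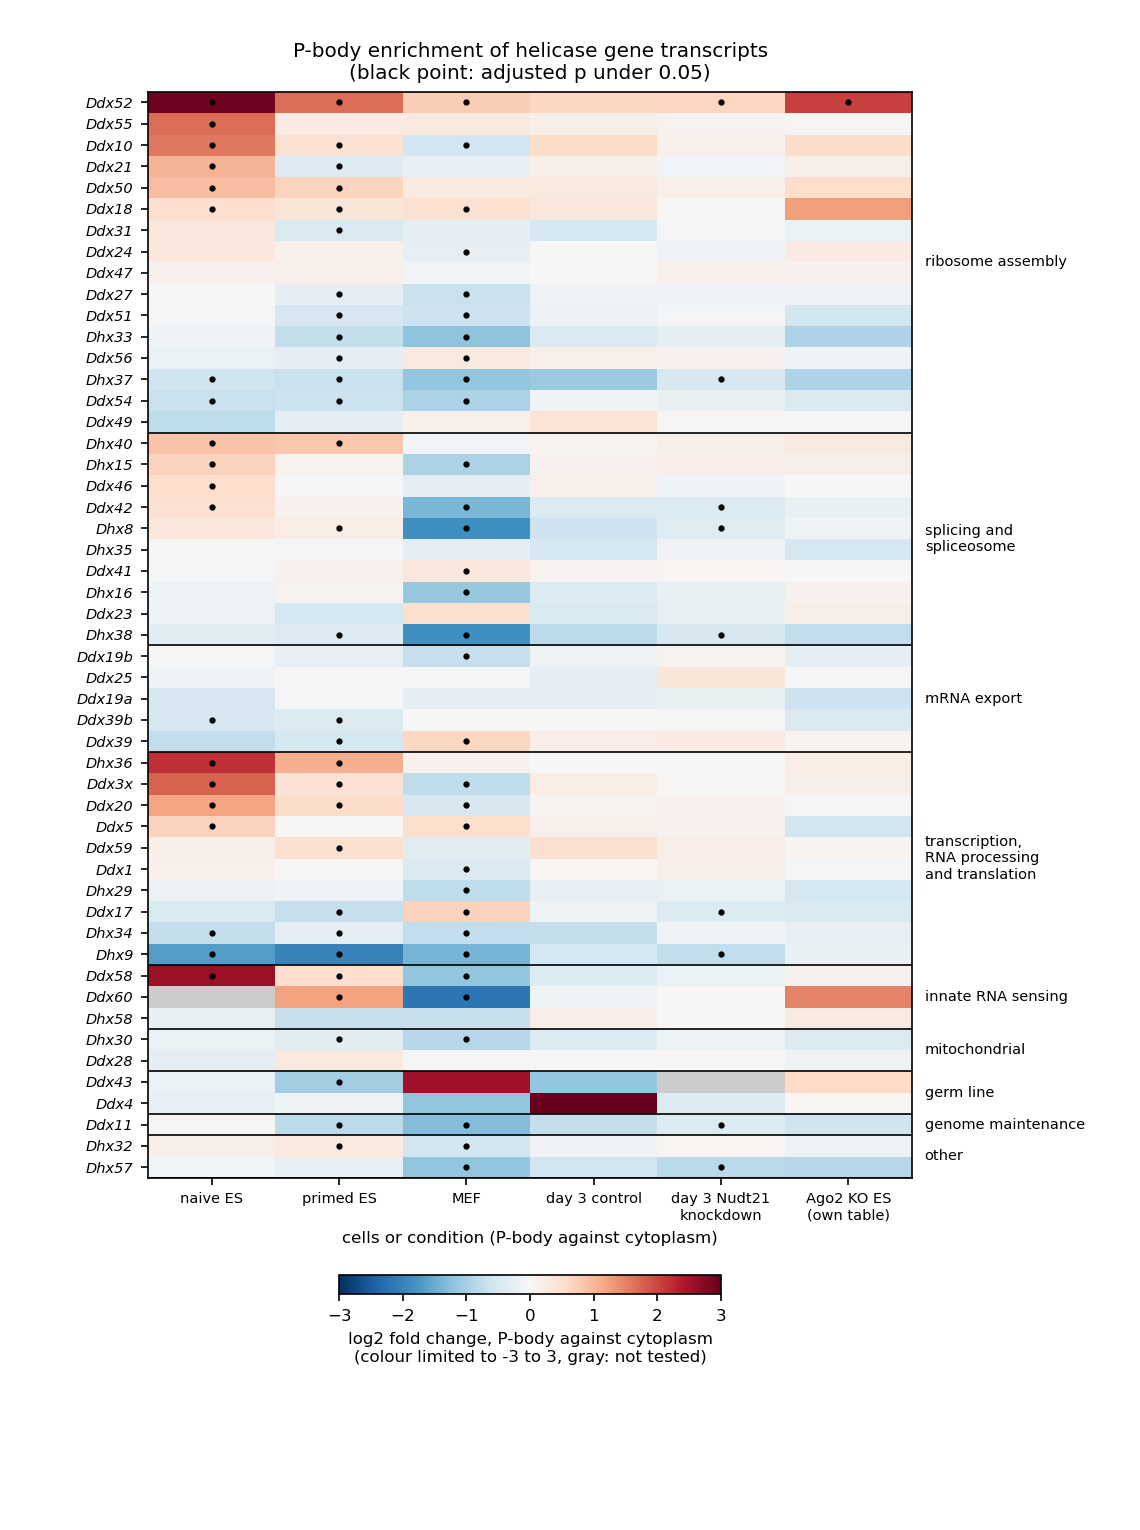
Log2 fold change of P-body against cytoplasm for 51 helicase genes (rows, grouped by role) in 6 cell states (columns), with a black point where the adjusted p is under 0.05 and gray where a gene was not tested. Ddx52 is red in all 6 columns and called in 5 of them, and the MEF column holds 25 blue cells with a point. Ddx4 and Ddx43 are at or under 1.66 CPM in the fibroblast and day 3 libraries, so their strong colours there rest on few reads.

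In primed ES cells the same comparison called 13 of 51 members enriched and 17 depleted, against 26.5% and 24.2% of all genes, with a median of -0.03 for the helicases and 0.00 for all genes. The 9 members enriched in both ES cell states were Ddx10, Ddx18, Ddx20, Ddx3x, Ddx50, Ddx52, Ddx58, Dhx36 and Dhx40. The share of all genes enriched in both was not counted. Ddx52 read 242 and 240 CPM in primed P-bodies against 74.2 and 80.9 CPM in the cytoplasm (log2 fold change 1.67 ± 0.07). Dhx36 read 331 and 325 CPM against 144 and 170 CPM (1.09 ± 0.07). Ddx3x read 432 and 435 CPM against 331 and 326 CPM (0.44 ± 0.05), a smaller gap than in naive cells. Ddx60, an antiviral helicase under 10 CPM here, read 9.12 and 9.31 CPM in primed P-bodies and 3.69 and 4.49 CPM in the cytoplasm (1.20 ± 0.22).

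Dhx9 was again the most depleted helicase mRNA, with 9 and 11 CPM in primed P-bodies and 39.3 and 42.5 CPM in the cytoplasm (log2 fold change -2.0 ± 0.14). Of the 16 ribosome assembly helicases 4 were enriched and 8 were depleted, among them Dhx33 (-0.72), Dhx37 (-0.66) and Ddx54 (-0.65). Ddx11, a DNA helicase of sister chromatid cohesion, fell by 0.78 on the log2 scale. Ddx17 was depleted (-0.68 ± 0.11) and Ddx5 was level (0.05 ± 0.05, adjusted p = 0.51, edgeR).

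A test of the difference between the 2 ratios called 11 of 51 members higher in naive than in primed cells (13.9% of all genes) and 1 lower (11.4% of all genes). Among called members of at least 10 CPM the differences were largest for Ddx58 (1.92 ± 0.37 on the log2 scale), Ddx55 (1.30 ± 0.21), Ddx21 (1.27 ± 0.14) and Ddx3x (1.19 ± 0.10). Ddx21 was enriched in naive P-bodies and depleted in primed P-bodies. It read 162 and 168 CPM in naive P-bodies against 99.5 and 89.1 CPM in the naive cytoplasm, and 116 and 123 CPM in primed P-bodies against 158 and 160 CPM in the primed cytoplasm. Ddx5 differed by 0.50 ± 0.13, a call lost without either naive P-body library. For Dhx9 the difference was 0.19 ± 0.19 (adjusted p = 0.50). That of Ddx58 was 1.48 without naive cytoplasm library 1 and 2.58 without library 2. The number of members called fell without either naive P-body library or primed cytoplasm library 2, and rose without either naive cytoplasm library. The number over all genes moved the same way.

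The cytoplasm itself differed between naive and primed cells, in 20 members (43.8% of all genes), with 12 higher in naive (22.1% of all genes) and 8 higher in primed (21.6%). Ddx3x was lower in the naive cytoplasm by 0.67 ± 0.11 on the log2 scale and Dhx36 by 0.56 ± 0.15, while Dhx9 was higher by 0.49 ± 0.14. Ddx58 had a difference of -1.94 ± 0.36, from 25 and 26.2 CPM in primed cytoplasm, and it was -1.51 without naive cytoplasm library 1 and -2.61 without library 2. Ddx25, listed here under mRNA export, was higher in primed cells (-2.30 ± 0.22). So was Ddx4, the vasa gene, listed under germ line (-1.29 ± 0.15). It read 76.9 and 86 CPM in primed cytoplasm against 30.3 and 27.6 CPM in naive cytoplasm. Ddx43, the other germ line member, was not called, and its log2 fold change had the opposite sign. Leaving out either primed cytoplasm library lowered the number called, as it did over all genes. Ddx3x, Dhx36, Dhx9 and Ddx58 were no longer called there. Leaving out naive cytoplasm library 2 raised the number called, again as over all genes.

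**Figure D2:**
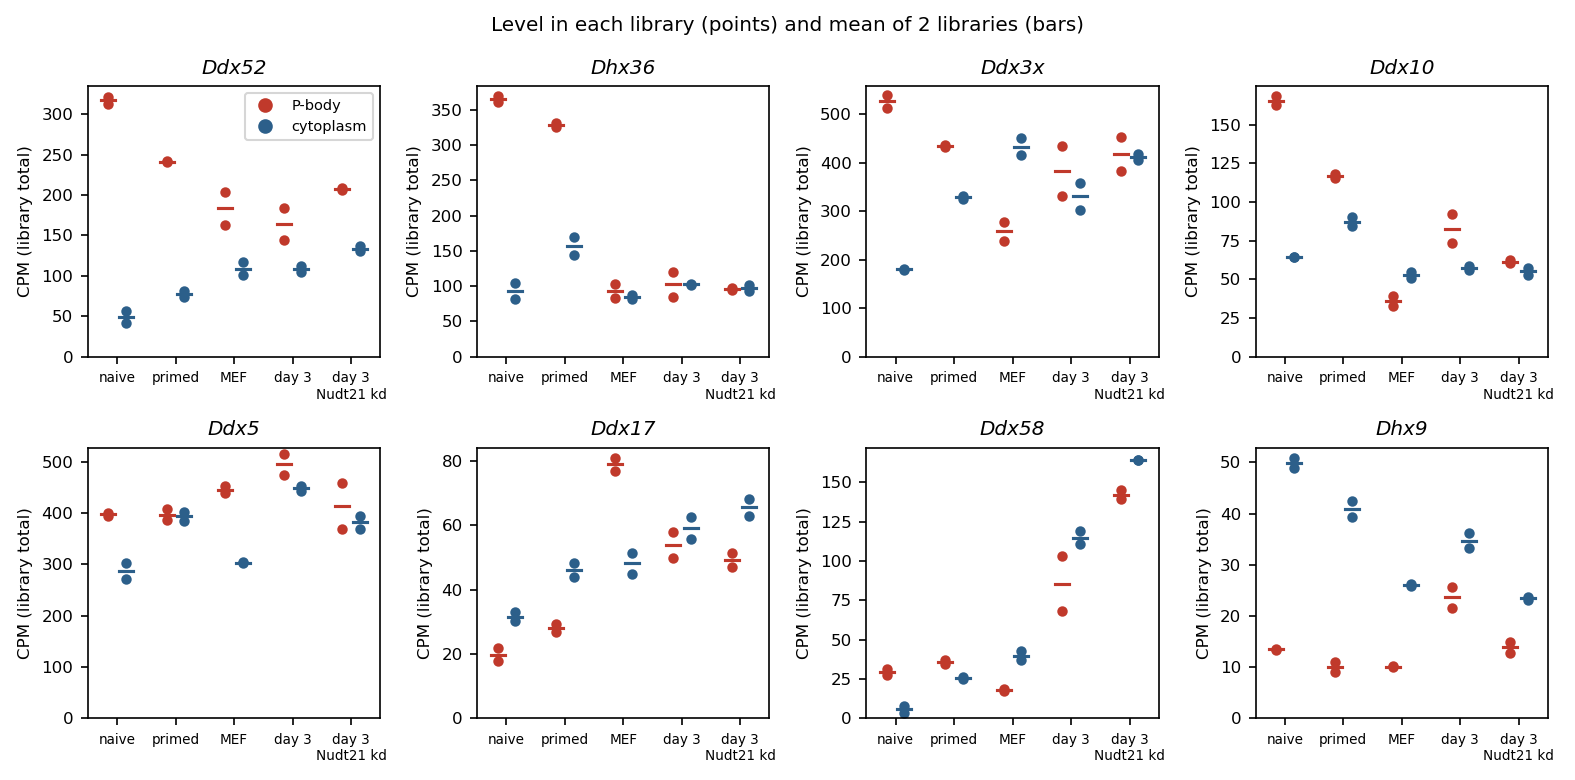
CPM of 8 helicase genes in each P-body library (red points) and cytoplasm library (blue points) of 5 cell states, with bars at the mean of 2 libraries and each vertical axis from 0. Ddx52 lies higher in P-bodies in every state, Dhx9 lies lower in every state, and Ddx3x and Ddx58 are higher in P-bodies of ES cells and lower in those of MEFs.

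In MEFs the balance was toward the cytoplasm. Of 51 members 7 were called enriched and 25 called depleted in P-bodies, where 26.6% and 28.7% of all genes were. The median log2 fold change of the helicase genes was -0.43, against 0.03 over all genes tested. Without MEF P-body library 1 the counts were 11 enriched and 26 depleted, and without library 2, which carried most of the lung epithelium reads, they were 7 and 28. Without either cytoplasm library fewer members were called in both directions. The number of all genes called rose without either P-body library and fell without either cytoplasm library.

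Of the 10 splicing helicases, 5 were depleted in MEF P-bodies and Ddx41 was enriched, and this group held the lowest values among members of at least 10 CPM. Dhx8, which releases spliced mRNA from the spliceosome, read 18.6 and 17.2 CPM in P-bodies and 64.3 and 61.6 CPM in the cytoplasm (log2 fold change -1.84 ± 0.11). Dhx38, which acts before the second step of splicing, read 18.2 and 11.6 CPM against 53.4 and 51.7 CPM (-1.84 ± 0.18). Ddx42 had a change of -1.36, and Dhx16 and Dhx15 were the other depleted genes of the list. Outside splicing, Dhx9 (-1.39 ± 0.13), Dhx33 (-1.20), Dhx37 (-1.19), Dhx57 (-1.18) and Ddx58 (-1.17) were depleted.

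By motif form, none of the 8 members with the DEAH motif was enriched in MEF P-bodies and 6 were depleted, with a median log2 fold change of -1.17, while 5 of 25 with the DEAD motif were enriched and 9 depleted, with a median of -0.26. The shares over all genes were 26.6% and 28.7%. In naive cells 2 of 8 and 8 of 25 were enriched, both near the 22.6% of all genes. Of the 8 DEAH genes, 6 are on the splicing list, so motif form and role overlap in these counts.

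The 7 enriched genes in MEFs were Ddx52 (0.74 ± 0.12), Ddx17 (0.69 ± 0.10), Ddx39 (0.61 ± 0.08), Ddx5 (0.53 ± 0.08), Ddx18 (0.45 ± 0.14), Ddx41 (0.35 ± 0.10) and Ddx56 (0.29 ± 0.10). Ddx17 read 81.1 and 76.9 CPM in P-bodies against 44.9 and 51.5 CPM in the cytoplasm, so that both paralogs of this pair were higher in MEF P-bodies. Ddx18, Ddx41 and Ddx56 lost their call without either cytoplasm library.

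The 6 members Ddx10, Ddx20, Ddx3x, Ddx42, Ddx58 and Dhx15 were enriched in naive P-bodies and depleted in MEF P-bodies. Over all genes 22.6% were enriched in the former and 28.7% depleted in the latter, and the share with both was not counted. Ddx3x read 278 and 239 CPM in MEF P-bodies and 415 and 450 CPM in the MEF cytoplasm (-0.76 ± 0.10), the reverse of its order in naive cells. The only members enriched in all 3 untreated states were Ddx18 and Ddx52, and those depleted in all 3 were Ddx54, Dhx34, Dhx37 and Dhx9. The shares of all genes with these patterns were not counted either.

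The difference of the naive and MEF ratios was called in 29 of 51 members, 23 higher in naive cells (21.5% of all genes) and 6 higher in MEFs (19.8%). Ddx58 differed by 3.54 ± 0.38 on the log2 scale (3.09 without naive cytoplasm library 1 and 4.21 without library 2), Ddx3x by 2.34 ± 0.15, Ddx52 by 1.99 ± 0.22 and Dhx8 by 1.98 ± 0.16. Of the 10 splicing helicases 7 were higher in naive cells and Ddx41 was higher in MEFs. In the other direction stood Ddx39 (-1.54 ± 0.28), Ddx17 (-1.34 ± 0.19), Ddx49 (-1.10 ± 0.27) and Ddx56 (-0.68 ± 0.16). For Dhx9 the difference was -0.46 ± 0.18 (adjusted p = 0.068, edgeR) and for Ddx5 it was -0.03 ± 0.14. The median over all genes was -0.17 in this fit and that of the helicases 0.42. Without a filter on low counts the split was 30 and 4, with 2.59 for Ddx3x and -1.09 for Ddx17. With all groups in 1 fit the median over all genes was 0.00 and Ddx3x was 2.57, and with filterByExpr Ddx3x was 2.30.

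At day 3 of reprogramming no helicase gene was called by edgeR between P-body and cytoplasm, where 0.646% of all genes were. An unadjusted p under 0.05 was found for 14 of 51 members and for 3899 of all 15786 genes. DESeq2 called 2 members enriched and 2 depleted, and 939 and 1166 of all genes. The P-body libraries of this group lay far apart for several members, as for Dhx37, with 29.1 and 12 CPM, and Dhx8, with 66.7 and 31.9 CPM. The number of members called rose without either P-body library, as did the number over all genes. Dhx9 had a log2 fold change of -0.54 ± 0.17 and Ddx3x of 0.23 ± 0.16. For Ddx5 it was 0.16 ± 0.10 and for Ddx17 -0.12 ± 0.16.

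The difference between the day 3 and MEF ratios was called in 14 members as higher at day 3 (9.59% of all genes) and in 1 as higher in MEFs (5.13%). The 14 included 5 of the 10 splicing helicases. Among those of at least 10 CPM the largest differences were for Dhx8 (1.25 ± 0.35), Ddx10 (1.15 ± 0.22), Dhx15 (1.12 ± 0.19) and Dhx38 (1.09 ± 0.26), and Ddx3x differed by 1.03 ± 0.20 and Dhx9 by 0.89 ± 0.22. Ddx17 was the gene higher in MEFs (-0.77 ± 0.19). None of the 15 calls remained without either day 3 cytoplasm library, and without day 3 P-body library 2 there were 24. Without MEF P-body library 1 or 2 there were 8 or 9, and without MEF cytoplasm library 1 or 2 there were 3 or 6. The number of all genes called fell and rose in the same fits. The markers of other cells in the MEF P-body libraries stand beside this result as well.

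With Nudt21 knocked down, which removes a cleavage factor subunit that sets the choice of polyadenylation site, 1 of 50 members was P-body-enriched at day 3 and 8 were depleted, against 9.04% and 12.8% of all genes. Ddx52 was the enriched gene, with 209 and 206 CPM in P-bodies and 131 and 136 CPM in the cytoplasm (0.64 ± 0.09). The depleted genes were Dhx57 (-0.80), Dhx9 (-0.75), Dhx37 (-0.48), Dhx38 (-0.47), Ddx42 (-0.42), Ddx11 (-0.41), Ddx17 (-0.41) and Dhx8 (-0.36). The number called fell without either cytoplasm library and rose without P-body library 2, as did the number over all genes. No member differed between the knockdown and control ratios, where 0.0118% of all genes did. Unadjusted, 2 members, Ddx31 and Dhx35, had a p under 0.05, as did 819 of all 16973 genes. DESeq2 called none of the members for this difference. Leaving out day 3 control P-body library 1 raised the number of members called, as it did over all genes.

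In the Ago2 knockout, with P-body and cytoplasm libraries taken as unpaired, Ddx52 was the single helicase gene called, of 52 tested, against 6.51% of all genes (5.47% enriched and 1.05% depleted). P-bodies held it at 132 and 141 CPM, against 34.6 and 30.2 CPM for cytoplasm, and the log2 fold change was 2.04 ± 0.25. Unadjusted, 9 members had a p under 0.05, as did 4031 of all 16808 genes. Dhx9, strongly depleted in the other ES cell states, read 31.2 and 31.7 CPM against 34.1 and 37.8 CPM here (-0.23 ± 0.24, adjusted p = 0.61), and Ddx3x had a value of 0.17 ± 0.30. The number of members called rose without either cytoplasm library, as did the number over all genes. The knockout was counted by another method in a table of its own, and whether its ratios differ from those of naive cells was not tested.

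**Figure D3:**
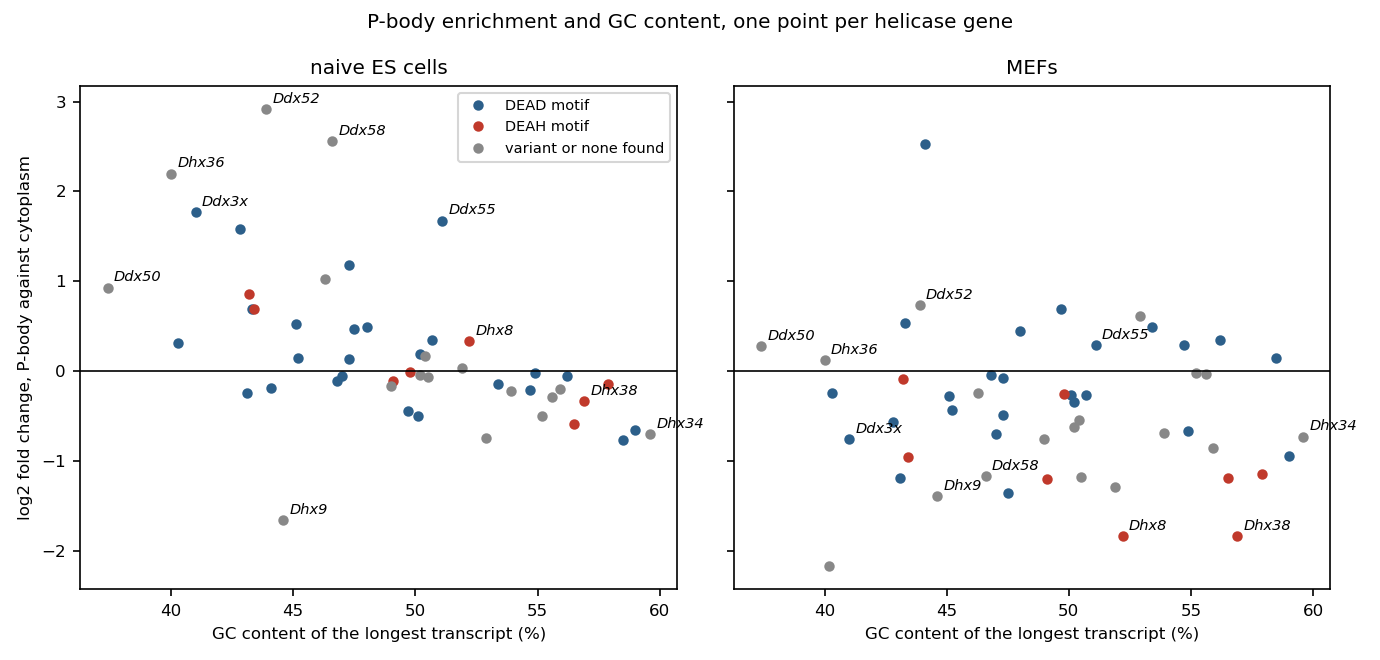
Log2 fold change of P-body against cytoplasm (vertical axis) against the GC content of the longest transcript in percent (horizontal axis) for each helicase gene in naive ES cells (left) and MEFs (right), coloured by motif form. In naive cells the points fall from upper left to lower right, with Dhx9 well below the others at its GC content, and in MEFs no such slope is seen.

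Across the helicase genes, P-body enrichment in naive cells went with low GC content of the transcript. Spearman's rank correlation was -0.63 over 50 helicase genes and -0.60 over all genes, so the relation was of the same size in the family as in the whole table. These are descriptions across genes that share the same 4 libraries. Dhx36 has a GC content of 40.0%, Ddx3x of 41.0%, Ddx10 of 42.8% and Ddx52 of 43.9%, and the depleted Dhx34, Ddx54, Dhx37 and Ddx39b have 59.6%, 59.0%, 56.5% and 55.2%. Dhx9 did not follow this order, with a GC content of 44.6% and the lowest enrichment of the family. The rank correlation was -0.48 in primed cells, -0.33 at day 3, -0.30 in the knockdown and -0.50 in the Ago2 knockout, and in MEFs it was -0.09. Against transcript length the rank correlation in MEFs was -0.39 for the longest transcript of the helicase genes and -0.45 over all genes, and for the helicase genes it was -0.36 at day 3 and -0.30 in the knockdown. With the median transcript of each gene the MEF value for the helicase genes was -0.07.

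The levels in the cytoplasm changed widely between MEFs and day 3, in 39 members (69.3% of all genes), with 33 higher at day 3 (35.5% of all genes) and 6 higher in MEFs (33.7%). The median log2 fold change was 0.45 for the helicases and 0.04 for all genes. Of 16 ribosome assembly helicases 11 rose, among them Ddx55 (1.11), Ddx24 (1.07) and Ddx27 (1.03), and Ddx50 fell by 0.93. Ddx39b, an export and splicing factor, read 93 and 86.6 CPM in MEFs and 255 CPM in both day 3 libraries (1.34 ± 0.06). Ddx3x fell by 0.55 and Dhx57 by 0.77.

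The 3 members listed here under innate RNA sensing, Dhx58, Ddx58 and Ddx60, all rose. Dhx58, which encodes the RIG-I relative LGP2, read 3.17 and 1.69 CPM in the MEF cytoplasm and 38 and 33.4 CPM at day 3 (3.71 ± 0.19). Ddx58 read 42.8 and 36.8 CPM and then 119 and 110 CPM (1.36 ± 0.08). Ddx60 read 0.802 and 1.33 CPM and then 12.6 and 11.6 CPM. The day 3 cells had been given doxycycline and the MEFs had not. The study's induction medium also held LIF and ascorbic acid, which its MEF growth medium lacked. Time, induction and medium cannot be told apart.

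Between Nudt21 knockdown and control cytoplasm at day 3, 28 members differed (49.6% of all genes), 22 higher in the knockdown (24.6%) and 6 lower (25%). The cell state markers differed as well. Fibroblast genes summed to 1631 to 1662 CPM in the knockdown and 5282 to 5422 CPM in control cytoplasm, and naive ES cell genes to 574 to 683 CPM and 315 to 327 CPM. The study reports a higher reprogramming efficiency with the knockdown. The part of cell state in these differences was not tested. The sensors were higher in the knockdown than in control, Dhx58 at 54.1 and 52.3 CPM, Ddx58 at 164 CPM in both libraries and Ddx60 at 26.2 and 21.8 CPM (0.97 ± 0.13). Of the ribosome assembly helicases 10 of 16 rose. Ddx21, a nucleolar helicase that links rRNA synthesis and processing, read 379 and 416 CPM against 180 and 172 CPM (1.16 ± 0.07), and Ddx24 rose by 0.86 ± 0.06. Ddx39b fell by 0.71 and its paralog Ddx39 rose by 0.57, while Dhx9 fell by 0.58. Ddx5 fell by 0.25 and Ddx3x rose by 0.30. When all groups of the table shared 1 fit, 15 members were called in place of 28, and Ddx5, Ddx3x and Dhx37 were no longer among them.

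**Figure D4:**
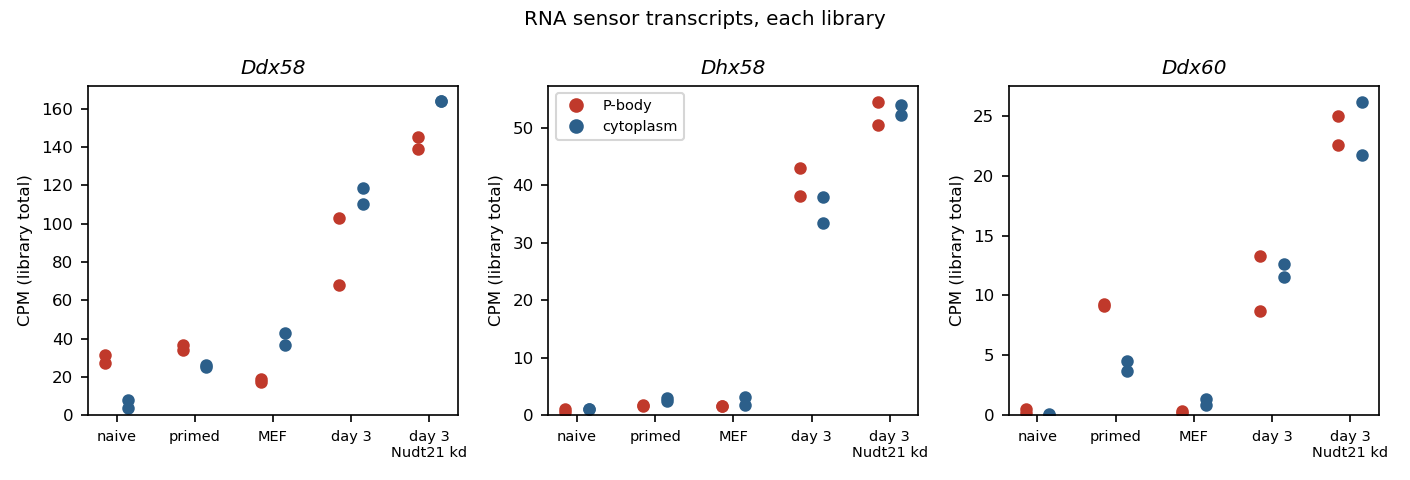
CPM of the RNA sensor transcripts Ddx58, Dhx58 and Ddx60 in each P-body (red) and cytoplasm (blue) library of 5 cell states, with vertical axes from 0. Dhx58 is at or under 3.17 CPM in all ES cell and MEF libraries and between 33.4 and 54.6 CPM in all day 3 libraries, in P-bodies and cytoplasm alike.

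Ribosome occupancy, measured in ES cells as the ratio of polysome to total RNA, was low for most helicase mRNAs. In control cells 38 of 50 members were called polysome-low, against 24.1% of all genes, and 1 was polysome-high, against 18.8%. The median log2 fold change was -0.53 for the helicase genes and 0.02 for all genes, and 45 of the 50 lay below 0. Since the values are scaled within each library, a log2 fold change here is relative to the other mRNAs of the polysome fraction.

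Dhx9 had the lowest occupancy of the family. It read 155, 152 and 142 CPM in the 3 polysome libraries and 498, 490 and 388 CPM in total RNA, a log2 fold change of -1.78 ± 0.08. Next were Ddx10 (-1.71 ± 0.08), Dhx29 (-1.60 ± 0.07), a translation initiation helicase, and Ddx21 (-1.55 ± 0.07). Dhx8 (-1.48), Dhx38 (-1.42) and Ddx46 (-1.40) led the splicing helicases, of which 8 of 10 were polysome-low. Ddx3x read 349, 330 and 359 CPM in polysomes against 695, 656 and 560 CPM in total RNA (-1.05 ± 0.08), and Ddx5 439, 462 and 464 CPM against 793, 791 and 693 CPM (-0.90 ± 0.07). The polysome and total values of these 3 genes did not overlap.

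Ddx17 was closer to the average, with 509, 501 and 457 CPM in polysomes and 594, 581 and 562 CPM in total RNA (-0.41 ± 0.06). Among ribosome assembly helicases 13 of 16 were polysome-low. Ddx52 read 58.4, 55.3 and 68.1 CPM in polysomes and 64.6, 68.5 and 54.9 CPM in total RNA, and these overlap. Ddx19b, an export factor, was the polysome-high gene, with 112, 104 and 103 CPM in polysomes and 86.7, 84.7 and 82.3 CPM in total RNA. Its log2 fold change was 0.16 ± 0.06, at the edge of the threshold, and its counts are uncertain because it shares sequence with Ddx19a. The call was lost under 7 other settings, among them no filter on low counts and leaving out any library but total RNA library 3. Across 50 helicase genes, enrichment in naive P-bodies and occupancy in control cells had a Spearman's rank correlation of -0.06. For all genes it was 0.03.

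**Figure D5:**
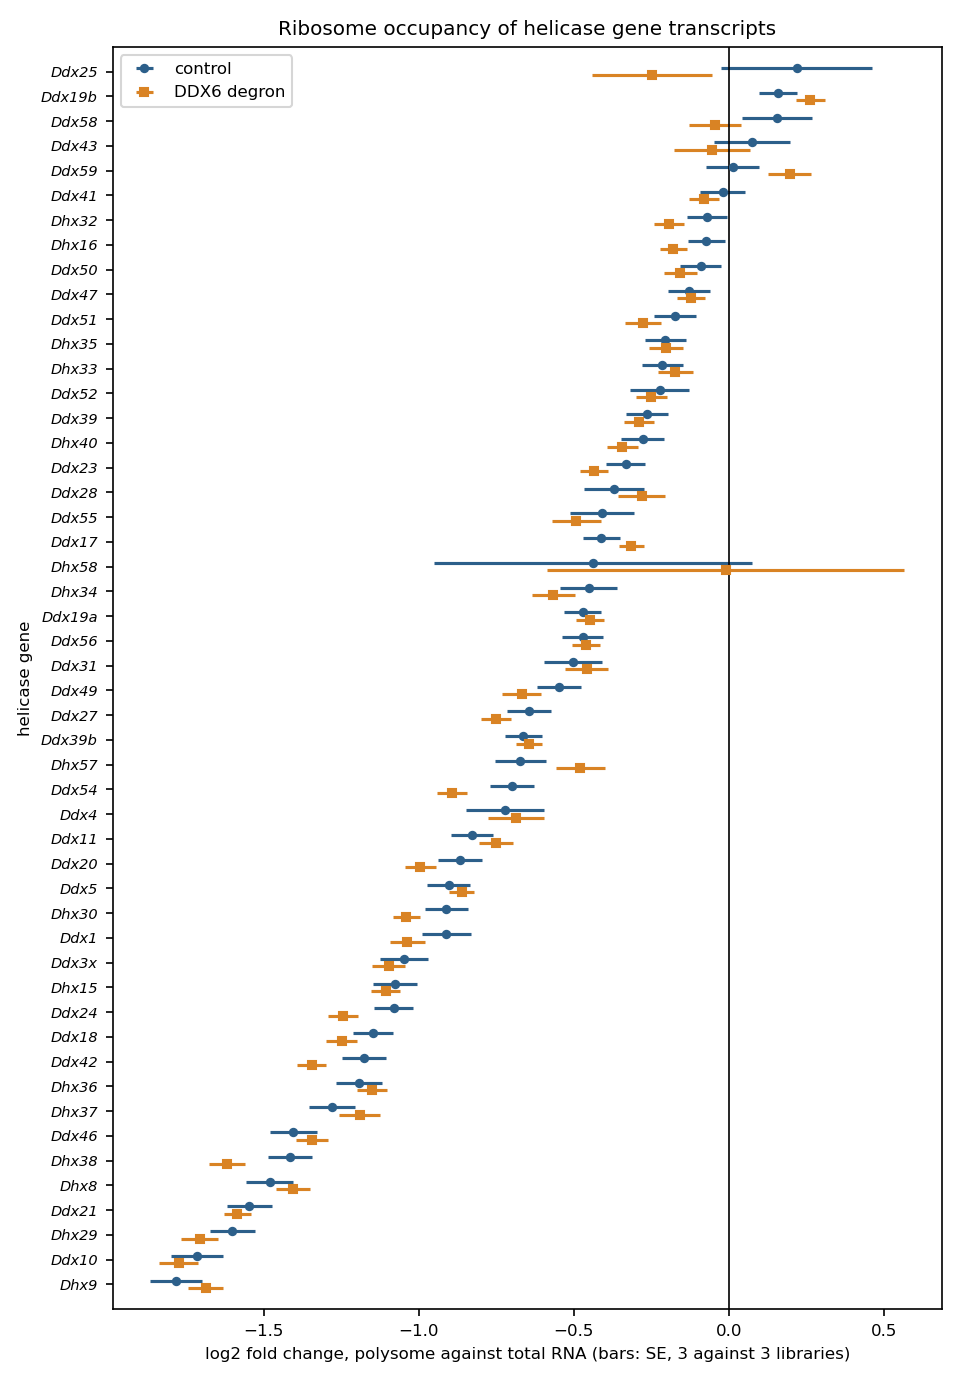
Log2 fold change of polysome against total RNA for 50 helicase genes in control cells (blue circles) and cells without DDX6 (orange squares), with bars for the SE over 3 against 3 libraries, ordered by the control value. Most genes lie left of 0 in both conditions, from Dhx9 at -1.78 in control to Ddx19b at 0.26 in the degron.

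In cells whose DDX6 had been degraded, 43 of 50 members were polysome-low (26.8% of all genes) and 2, Ddx19b (0.26 ± 0.05) and Ddx59 (0.20 ± 0.07), were polysome-high (24%). The 38 genes that were polysome-low in control cells were all low here, and the share of all genes low in both was not counted. The lowest values were those of Ddx10 (-1.77 ± 0.06), Dhx29 (-1.71 ± 0.06), Dhx9 (-1.69 ± 0.06) and Dhx38 (-1.62 ± 0.06). All 16 ribosome assembly helicases were polysome-low, as were 9 of 10 splicing helicases.

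The test of the difference in occupancy between degron and control cells called no helicase gene and no gene at all by edgeR (0% of all genes). At an unadjusted p under 0.05 stood 844 of all 16345 genes, among them the members Ddx24, Ddx54 and Dhx38. DESeq2 called 2 genes higher and 2 lower over the whole table. The difference was 0.09 ± 0.11 for Dhx9, -0.05 ± 0.10 for Ddx3x, 0.04 ± 0.08 for Ddx5 and 0.09 ± 0.07 for Ddx17. In total RNA Ddx19b alone was called lower without DDX6 (-0.25 ± 0.06, adjusted p = 0.043, edgeR), against 3.31% of all genes (1.24% higher and 2.07% lower). It read 67.8, 71 and 75 CPM in the degron and 86.7, 84.7 and 82.3 CPM in control. Its counts are uncertain, as it shares sequence with Ddx19a, which read 104, 109 and 108 CPM against 112, 114 and 110 CPM. The part of shared reads in this result was not tested. The call was lost with a replicate block and on leaving out any library but control library 3. Without control library 3, 11 members were called, and of all 15209 genes 1577 were called higher and 1796 lower.

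Other RNA helicases outside the naming rule, 18 in number and including Upf1, Mov10, Snrnp200 and the Eif4a genes, were read from the same fits. In MEF P-bodies 13 of 17 were depleted (28.7% of all genes) and Eif4a2 was enriched (26.6%). In naive cells 4 of 17 were enriched and 2 depleted, near the 22.6% and 15.4% of all genes, and in primed cells 5 and 7 were (26.5% and 24.2% of all genes). In control polysomes 13 of 16 were polysome-low (24.1% of all genes) and Eif4a2 was polysome-high (18.8%). Upf1, the helicase of nonsense-mediated decay, had log2 fold changes of -0.79 in naive, -1.44 in primed and -1.43 in MEF P-bodies and of -1.93 in polysomes. Mov10, a helicase that works with Argonaute proteins, had 0.84 and 0.67 in naive and primed P-bodies and -1.15 in those of MEFs.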

How the data were processed

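The authors sequenced sorted P-bodies and cytoplasm from Smart-seq libraries and deposited estimated counts per gene. In 1 table, counts were made with HISAT2 and featureCounts on mm10 exons, with shared reads split into fractions. The Ago2 knockout and polysome tables hold estimated counts deposited from salmon. Strand was not stated for the P-body libraries. Between 5.05% and 25.7% of values per library were fractional, and all were rounded to whole numbers. A further 10 tables hold the authors' own comparisons (fold changes and p-values) and were not used. The tables were never tested against each other.

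Each of 17 comparisons (12 of 2 groups, 5 of 2 ratios) was fitted on all genes with at least 10 reads summed over its libraries, with TMM scaling and edgeR 4.0.16 (glmQLFit, glmQLFTest, two-sided, R 4.3.3), and adjusted by Benjamini-Hochberg, with calls under 0.05. CPM values are per library total. Genes named were Ddx5, Dhx9, Ddx17 and Ddx3x throughout, plus up to 8 called genes in each direction (4 for ratios) by fold change, averaging 10 CPM or more and, for 2 groups, not overlapping. Any other gene was named after its values were seen. Members and lists were chosen with earlier results of these data known. Alternatives were DESeq2 1.42.0, its size factors, filterByExpr, no filter, a replicate block, all groups in 1 fit, and leaving out each library. GC content, length and motifs came from GENCODE transcripts of mm10. The fits were tested on simulated counts.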

Additional observations from a re-analysis of the deposited data

Results flagged for a closer look

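Differences between cell states in P-body enrichment, each tested as an interaction in edgeR, were picked out for the following helicase genes because the ratio in 1 state differed from that in the other beyond the threshold. Between naive and primed cells, the log2 difference was 1.92 for Ddx58, 1.30 for Ddx55, 1.27 for Ddx21, 1.19 for Ddx3x and 0.50 for Ddx5, higher in naive cells, and -0.55 for Dhx34, higher in primed cells. The Dhx34 difference had an adjusted p of 0.048 and lost its call under each of the other settings that used all libraries. That of Ddx5 ran from 0.40 to 0.67 over left-out libraries, and its call depended on the naive P-body libraries, as given above.

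Between naive cells and MEFs, it was 3.54 for Ddx58, 2.34 for Ddx3x, 1.99 for Ddx52 and 1.98 for Dhx8, and in the other direction -1.54 for Ddx39, -1.34 for Ddx17, -1.10 for Ddx49 and -0.68 for Ddx56. Ddx39 and Ddx58 rest on naive cytoplasm pairs that lay apart, at 748 and 452 CPM and at 3.6 and 8.11 CPM. Between day 3 and MEFs, it was 1.25 for Dhx8, 1.15 for Ddx10, 1.12 for Dhx15, 1.09 for Dhx38, 1.03 for Ddx3x and 0.89 for Dhx9, higher at day 3, and -0.77 for Ddx17. These day 3 calls depended on single libraries, as given above. Over left-out libraries Dhx8 ran from 0.58 to 1.63, Ddx10 from 0.92 to 1.28, Dhx15 from 0.85 to 1.26 and Dhx38 from 0.80 to 1.46. Ddx3x ran from 0.77 to 1.16, Dhx9 from 0.71 to 0.96 and Ddx17 from -0.94 to -0.69. The 2 comparisons share the MEF libraries, whose P-body samples hold the lung epithelium and blood reads given above, and the part of those reads was not tested.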

How the results depend on the processing

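Over the log2 fold changes of the named genes, 1830 of the values under another setting kept their direction and their side of the threshold, 160 kept the direction but were no longer called, 23 were newly called, and 24 changed sign, all of genes that were not called. The helicase genes called in the P-body comparisons of naive cells, primed cells and MEFs, in both polysome comparisons and between day 3 and MEF cytoplasm numbered within 1.5 times the reported count under every setting that used all libraries. The day 3 control P-body comparison, with 0 members called, gave 4 with DESeq2, 4 without a filter, 2 with a replicate block and 16 with all groups in 1 fit. The Ago2 knockout, with 1, gave 2 with DESeq2, 5 without a filter and 8 with a replicate block. With all groups in 1 fit, the Nudt21 knockdown P-body comparison gave 4 in place of 9 and the knockdown cytoplasm 15 in place of 28. The total RNA comparison of degron and control, with 1, gave 2 with DESeq2, 0 with a replicate block and 2 with all groups in 1 fit. The number of all genes called moved in the same direction in each of these fits. The cause of these shifts was not tested.

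Leaving out 1 library at a time gave 10 to 38 members called for naive P-bodies, 0 to 27 for day 3 control P-bodies, 1 to 17 for Nudt21 knockdown P-bodies, 1 to 18 for the Ago2 knockout, 7 to 25 for naive minus primed, 0 to 24 for day 3 minus MEF, 0 to 11 for knockdown minus control, 5 to 34 for naive against primed cytoplasm and 0 to 11 for degron against control total RNA. Where it left a group with 1 library, that library was assumed to vary like the other groups. Over all genes the number called also moved widely in each of these comparisons.

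Ddx5, at -0.03 for naive minus MEF, was 0.0024 with DESeq2 and with its size factors, 0.22 without a filter and 0.20 with all groups in 1 fit, and -0.13 to 0.21 over left-out libraries. For knockdown minus control it was 0.025 with all groups in 1 fit and -0.19 to 0.15 over left-out libraries, and Ddx3x was -0.34 to 0.014. Over left-out libraries Ddx17 ran from -0.26 to 0.016 for day 3 control P-bodies and from -0.051 to 0.28 for naive minus primed, Ddx5 from -0.048 to 0.29 and Ddx3x from -0.11 to 0.16 for Nudt21 knockdown P-bodies. Ddx3x ran from -0.20 to 0.46 for the Ago2 knockout, from -0.072 to 0.074 for degron against control total RNA and from -0.12 to 0.034 for the difference in occupancy.

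Groups share replicate numbers, but the numbers did not pair the libraries by the check made: among the comparisons with 3 pairs, the lowest correlation of deviations between libraries of the same number was 0.027 in control polysomes and -0.0033 in the degron. With 2 pairs, the correlation was 0.542 in the Ago2 knockout, where a block gave 2565 genes enriched and 1613 depleted in place of 919 and 176, and it lay between -0.058 and 0.199 in the other P-body comparisons. The study kept the cytoplasm from which each P-body sample was sorted, but no label says that a shared number marks such a pair. Besides the 3 counts above, a replicate block kept every count of members called within 1.5 times. Depth limits mainly Ddx4, Ddx43 and Ddx60, which were at or under 1.66 CPM in every MEF library.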

Other observations

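Some helicase mRNAs stood at very different levels in the sorted-particle tables and the polysome table. The study made the former libraries with SMART-Seq and Nextera XT and the latter with the NEB Ultra II Directional kit. The tables were also made and scaled separately, so the values are given side by side with no comparison. Ddx23, a splicing helicase, read 2.07 to 5.16 CPM in the 20 P-body and cytoplasm libraries of the first table, 1.95 to 2.52 CPM in the Ago2 knockout libraries and 106 to 138 CPM in the polysome and total RNA libraries. Ddx17 read 17.9 to 81.1 CPM, 27.5 to 42.1 CPM and 457 to 594 CPM in the same order. Its paralog Ddx5 read 273 to 516 CPM, 268 to 521 CPM and 428 to 793 CPM. Dhx9, lowest in P-body enrichment in naive and primed ES cells and in control occupancy, read 9 to 50.8 CPM, 31.2 to 37.8 CPM and 134 to 498 CPM. Ddx24, of ribosome assembly, had the opposite order, with 137 to 747 CPM in the first table and 51.6 to 113 CPM in the polysome table. The cause was not tested.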
